A study of Homo sapiens with 6 samples.

Results

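The genes described here are 48 genes of DNA repair, Fanconi anaemia and checkpoint signalling. They were taken by symbol from a list of homologous recombination, Fanconi, mismatch, excision repair, end joining and checkpoint genes, and all 48 were found among the 60240 genes of the deposited table. The cells were HepG2, an established human liver tumour line. GDF11 cultures received 100 ng/ml recombinant GDF11, a secreted ligand of the TGF-beta family, for 24 h, and the labels call the other group control, with no agent named. Both groups were grown in high-glucose medium with fetal bovine serum, and each has 3 libraries that the labels call biological replicates, so the p-values measure the spread between these cultures of 1 line. Values are log2 values on a variance-stabilised scale on which a gene without reads stands at 5.52, and no member was below 6.93 in any library, so that all 48 passed the filter on low values.

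Cells repair DNA by several routes. Double-strand breaks are either rejoined directly by end joining, with the Ku proteins, DNA-PK and ligase IV, or copied from the sister chromatid by homologous recombination, with the BRCA proteins and their helpers. The Fanconi proteins form a core complex that marks FANCD2 and FANCI with ubiquitin at crosslinked DNA and so hands the lesion to recombination, while mismatch, base excision and nucleotide excision repair remove single damaged bases or short stretches. ATM and ATR are the kinases that report damage, and CHEK1 and CHEK2 are the kinases they act on. Many recombination and Fanconi genes are known to be transcribed mainly in S and G2 phase, and liver tumour lines divide continuously in culture.

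GDF11-treated cells held less RNA of many of these genes. With limma at a Benjamini-Hochberg adjusted p under 0.05 over all 18723 genes tested, 21 of the 48 members were lower with GDF11 and 1 was higher. Of all tested genes 10.8% were called lower and 11.7% higher, against 43.8% and 2.08% of the members. The members and the other gene lists below were chosen with earlier results of these data known, which such shares do not allow for. The median log2 difference over the members was -0.48, against 0.0056 over all tested genes, and 39 of the 48 differences were negative. The 3 GDF11 values lay below all 3 control values for 30 members and above them for 2, where 19.6% and 20.9% of all tested genes did so. The members that fell kept 31.9% to 68.2% of the control level on back-transformed reads, with a median of 52.9%. Falls of at least 1 on the log2 scale were seen for 5 members, XRCC3, CHEK1, EXO1, RAD54L and FANCG, where 2.96% of all tested genes fell and 4.29% rose this far, and 0 members rose this far by call. The scale compresses low values, so that some members short of this step changed as much in back-transformed reads. FANCE kept 44.6% of the control reads, RAD51AP1 45.1%, NEIL3 45.3%, CHEK2 46.9% and BRIP1 49.0%, beside 45.8% for FANCG. LIG4, the member called higher, rose to 201% of the control reads. Since RNA was taken from whole cultures, fewer cells expressing a gene and less RNA per cell cannot be told apart.

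**Figure D1:**
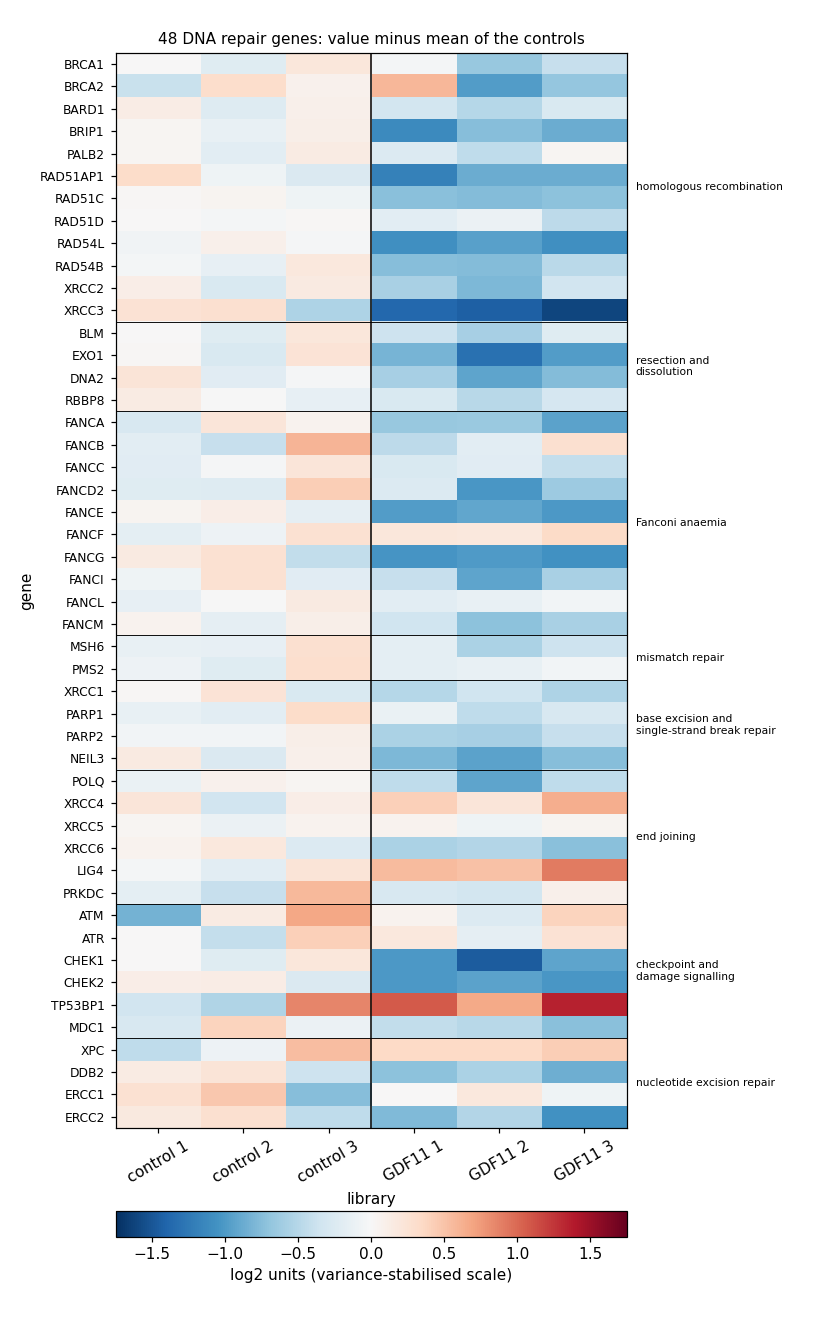
Heat map of the 48 genes (rows, grouped by role) in the 6 libraries (columns). Colour gives the log2 value of a library minus the mean of the 3 controls, blue being lower and red higher, and the GDF11 columns are blue for most rows of recombination, resection and Fanconi genes, while TP53BP1, LIG4 and XRCC4 are red.

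Among the control libraries, control replicate 3 stood apart. It lay at -21.57 on the first principal component of the 1000 most variable genes, with the other controls at -29.88 and -31.75 and the GDF11 libraries between 27.27 and 28.62. It had the highest of the 3 control values for 26 members and the lowest for 13. Without it, 24 members were called lower and 3 higher, where 21.3% and 19.5% of all tested genes were called. All 21 members called lower with 6 libraries were among these 24. From the step that 1 read makes in the table, libraries held an estimated 47900000 to 53400000 reads each. The labels name a MiSeq, an instrument of lower output than that, and the read totals themselves were not used here, so this depth is uncertain. TGF-beta response genes rose in the treated cultures: SMAD7 by 2.10 ± 0.29, SKIL by 3.06 ± 0.21 and PMEPA1 by 2.61 ± 0.16 (log2 difference ± moderated SE, 3 against 3 libraries). PMEPA1 stood at 5.52, 5.52 and 6.03 in control replicates 1 to 3, at or near the value of a gene without reads. Its difference is bounded by that lowest value and is not comparable in size with those of SMAD7 and SKIL. All 10 hepatocyte marker genes, ALB and AFP among them, were expressed, with a summed level of 1519005 to 2017525 normalised reads in controls and 1236523 to 1375100 with GDF11, and 6 of the 10 fell. The leukocyte genes PTPRC and CD3E and the endothelial genes TEK and CLDN5 were at the lowest value in every library. Summed normalised reads of 6 leukocyte markers were 68885 to 80423 in controls and 32546 to 34218 with GDF11, nearly all of them LYZ. Those of 5 endothelial markers were 53 to 97 and 13 to 33, and those of 6 fibroblast and stellate markers 822 to 1554 and 1980 to 2625, nearly all of them PDGFRB. The part of these marker lists in the member differences was not tested.

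The starts of the members were looked up to see what their promoters share. RefSeq promoter windows (GRCh38.p14) were found for 43 of the 48 members, 64 windows in all, and the 250 bases before each start were searched on both strands for 3 motifs. An E2F-type site (TTTCCCGC, TTTGGCGC, TTTCGCGC or TTTGCCGC) was found in 1 of 24 windows of members called lower (4.17%). It was in 4 of 35 windows of members not called (11.4%) and in 3.86% of the windows of all tested genes. The CHR element of cell cycle promoters (TTTGAA) was in 12.5%, 14.3% and 9.53% of these windows. The CCAAT box (CCAAT, bound by NF-Y) was in 62.5% of the windows of members called lower, 37.1% of those of members not called and 32.8% of those of all tested genes. Counted by gene, 12 of 18 members called lower and 11 of 24 not called had a CCAAT box in at least 1 window, against 40.7% of tested genes with a window. For the E2F-type site these were 1 of 18 and 3 of 24, against 5.2%, and for the CHR element 3 of 18 and 5 of 24, against 12.4%. These are matches of letters in a window and a description without a test. Windows are shown for 3 of the members with the CCAAT box that fell, including XRCC3 with 5 boxes, for FANCA, the only member called lower with an E2F-type site, and for LIG4, the only member that rose, at the first start listed. Each is written 5′ to 3′ in the direction of the gene, with CCAAT boxes and E2F-type sites in capitals on either strand.
XRCC3, chr14:103715452-103715701, minus strand: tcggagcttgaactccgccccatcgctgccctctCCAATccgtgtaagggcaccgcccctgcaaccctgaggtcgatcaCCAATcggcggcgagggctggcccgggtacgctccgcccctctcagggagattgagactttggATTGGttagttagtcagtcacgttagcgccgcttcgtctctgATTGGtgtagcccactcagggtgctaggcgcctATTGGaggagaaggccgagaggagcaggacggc
BRIP1, chr17:61863529-61863778, minus strand: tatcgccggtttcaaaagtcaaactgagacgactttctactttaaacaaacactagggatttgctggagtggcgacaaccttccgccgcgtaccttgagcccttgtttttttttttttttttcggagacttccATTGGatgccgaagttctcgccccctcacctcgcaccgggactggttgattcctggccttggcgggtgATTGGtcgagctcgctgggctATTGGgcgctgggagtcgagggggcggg
CHEK1, chr11:125625979-125626228, plus strand: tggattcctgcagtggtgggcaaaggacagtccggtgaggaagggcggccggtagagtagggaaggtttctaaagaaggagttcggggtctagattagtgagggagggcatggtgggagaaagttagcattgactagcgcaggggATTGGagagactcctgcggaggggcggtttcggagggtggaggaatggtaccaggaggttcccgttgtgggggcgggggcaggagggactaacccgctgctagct
FANCA, chr16:89816648-89816897, minus strand: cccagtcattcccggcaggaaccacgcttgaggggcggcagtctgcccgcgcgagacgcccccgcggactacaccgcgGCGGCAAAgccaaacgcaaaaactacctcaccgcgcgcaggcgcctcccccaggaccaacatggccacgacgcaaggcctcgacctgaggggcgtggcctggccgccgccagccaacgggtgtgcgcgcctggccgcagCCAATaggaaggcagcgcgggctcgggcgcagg
LIG4, chr13:108218350-108218599, minus strand: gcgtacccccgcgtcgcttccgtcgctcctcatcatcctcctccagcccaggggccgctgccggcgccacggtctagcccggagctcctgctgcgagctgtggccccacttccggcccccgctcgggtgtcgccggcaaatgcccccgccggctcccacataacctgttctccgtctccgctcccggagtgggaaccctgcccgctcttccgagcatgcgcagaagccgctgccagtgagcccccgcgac
The XRCC3 boxes begin 216, 171, 108, 66 and 33 bases before the start, the BRIP1 boxes 117, 49 and 28 bases before it. The CHEK1 window belongs to the first listed of 3 starts and lies inside the span given for the gene, so its start is an alternative one. CHEK1 has its box 105 bases and FANCA 33 bases before the start, and the E2F-type site of FANCA begins 172 bases before it. The LIG4 window shown holds none, although 2 of the 5 LIG4 windows have one.

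In homologous recombination, all 12 members had negative differences, 6 of them fell and 6 were not called. XRCC3, which works in a complex with RAD51C (chromosome 14, 103697617 to 103715451 of GRCh38), had the largest fall of all members. It stood at 11.14, 11.16 and 10.35 in control replicates 1 to 3 and at 9.51, 9.45 and 9.28 in GDF11 replicates 1 to 3. Even the lowest control, replicate 3, lay above all GDF11 values. XRCC3 fell by 1.47 ± 0.23 on the log2 scale (adjusted p = 0.00228), to 31.9% of the control reads, with a difference of -1.74 once control replicate 3 is left out.

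RAD54L, a motor protein of strand invasion (chromosome 1, 46247688 to 46278473), stood at 10.47, 10.61 and 10.50 in control replicates 1 to 3 and at 9.46, 9.58 and 9.45 in GDF11 replicates 1 to 3. Replicates lay close together in both groups, and the gene fell by 1.03 ± 0.14 (adjusted p = 0.00103), to 45.7% of control. Its relative RAD54B fell by 0.66 ± 0.16 (adjusted p = 0.0181), and lost its call (-0.67 to -0.61) when control 1, GDF11 1 or GDF11 2 was left out. RAD51AP1, which stimulates strand pairing, stood at 10.03, 9.63 and 9.45 in control replicates 1 to 3 and at 8.52, 8.84 and 8.84 in GDF11 replicates 1 to 3. All GDF11 values were below the lowest control, and the gene fell by 0.97 ± 0.19 (adjusted p = 0.00739), to 45.1% of control. RAD51C, the complex partner of XRCC3, fell by 0.74 ± 0.13 (adjusted p = 0.00513). BRIP1, the helicase partner of BRCA1 that is also a Fanconi gene, stood at 10.02, 9.86 and 10.09 in control replicates 1 to 3 and at 8.87, 9.24 and 9.12 in GDF11 replicates 1 to 3. It fell by 0.91 ± 0.16 (adjusted p = 0.00404), to 49.0% of control.

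The genes at the centre of this route were not called. BRCA1 stood at 10.49, 10.27 and 10.68 in control replicates 1 to 3 and at 10.44, 9.82 and 10.08 in GDF11 replicates 1 to 3. GDF11 replicate 1 lay inside the control range, and the difference was -0.37 ± 0.20 (adjusted p = 0.204). BRCA2, a central mediator of recombination, stood at 8.25, 8.94 and 8.71 in control replicates 1 to 3 and at 9.22, 7.66 and 7.96 in GDF11 replicates 1 to 3. Its 3 GDF11 values spanned more than the controls did, with replicate 1 above and the others below every control, and the difference was -0.35 ± 0.37 (adjusted p = 0.521). The BRCA1 partner BARD1 had a difference of -0.36 ± 0.16 and PALB2, the link between BRCA1 and BRCA2, had -0.22 ± 0.17. XRCC2 (-0.56 ± 0.18, adjusted p = 0.0537) and RAD51D (-0.25 ± 0.15, adjusted p = 0.253), which work together in recombination, were not called either, though their GDF11 values lay below all controls.

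In resection and dissolution, the steps that trim a break and resolve joined molecules, 2 of 4 members fell. EXO1, a nuclease of long-range resection (chromosome 1, 241847986 to 241889939), stood at 9.75, 9.47 and 9.97 in control replicates 1 to 3 and at 8.91, 8.42 and 8.75 in GDF11 replicates 1 to 3. The groups did not overlap, and EXO1 fell by 1.04 ± 0.19 (adjusted p = 0.00538), to 43.1% of control. DNA2, the other long-range nuclease, stood at 9.54, 9.11 and 9.29 in control replicates 1 to 3 and at 8.73, 8.39 and 8.56 in GDF11 replicates 1 to 3. It fell by 0.76 ± 0.17 (adjusted p = 0.0136) and was no longer called when control 1 or GDF11 2 was left out (-0.67 to -0.64). The BLM helicase stood at 9.41, 9.18 and 9.60 in control replicates 1 to 3 and at 9.03, 8.81 and 9.19 in GDF11 replicates 1 to 3. GDF11 replicate 3 lay just above the lowest control, and BLM was not called (-0.38 ± 0.17, adjusted p = 0.139). RBBP8, which encodes the resection starter CtIP, was not called either (-0.35 ± 0.15, adjusted p = 0.128) and was called lower without control replicate 3 (-0.42, adjusted p = 0.0387).

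**Figure D2:**
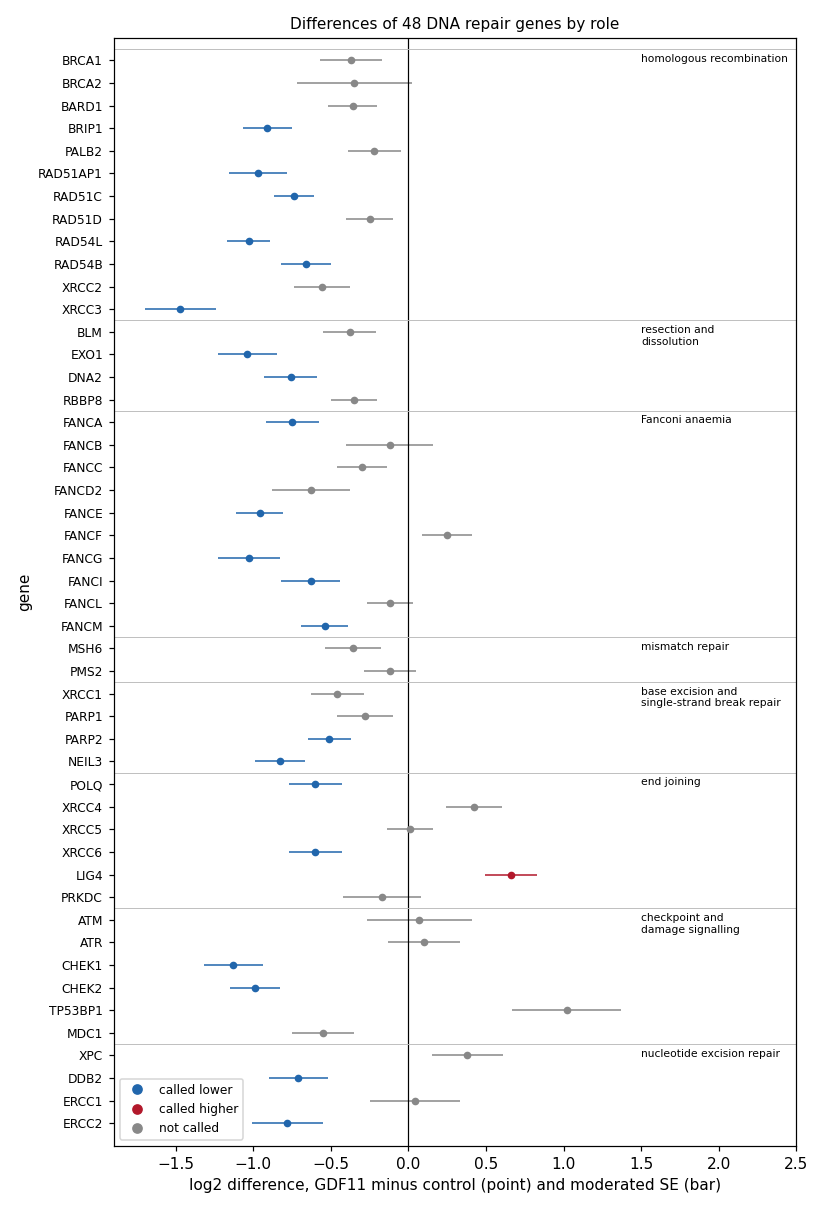
Log2 difference between GDF11 and control (horizontal axis) for the 48 genes, grouped by role, with limma's moderated SE as bars. Blue points are the 21 genes called lower, red is LIG4, the 1 gene called higher, and grey points were not called.

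Of the 10 Fanconi genes, 5 fell and 5 were not called. FANCG, a core complex scaffold (chromosome 9, 35073839 to 35079942), stood at 11.29, 11.40 and 10.69 in control replicates 1 to 3 and at 10.09, 10.13 and 10.07 in GDF11 replicates 1 to 3. Control replicate 3 lay well below the other controls and yet above the tightly grouped GDF11 values. FANCG fell by 1.03 ± 0.20 (adjusted p = 0.00666), to 45.8% of control, with a difference of -1.25 once control replicate 3 is left out. FANCE, the core member that binds FANCD2, stood at 9.50, 9.57 and 9.29 in control replicates 1 to 3 and at 8.47, 8.55 and 8.45 in GDF11 replicates 1 to 3. It fell by 0.96 ± 0.15 (adjusted p = 0.002), to 44.6% of control. FANCA, the partner of FANCG in the core, stood at 11.26, 11.75 and 11.60 in control replicates 1 to 3 and at 10.87, 10.89 and 10.60 in GDF11 replicates 1 to 3. It fell by 0.75 ± 0.17 (adjusted p = 0.0157) and was no longer called when control 2, GDF11 1 or GDF11 3 was left out (-0.79 to -0.64). FANCM, the DNA translocase that anchors the core, fell by 0.54 ± 0.15 (adjusted p = 0.0345), and its call ended without control replicate 1 or any 1 GDF11 replicate (-0.64 to -0.46).

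FANCI and FANCD2, the paired substrates of the core complex, were on either side of the threshold. FANCI stood at 11.59, 11.94 and 11.47 in control replicates 1 to 3 and at 11.26, 10.75 and 11.10 in GDF11 replicates 1 to 3. It fell by 0.63 ± 0.19 (adjusted p = 0.0439), and of the 6 fits with 1 library left out only the one without control replicate 3 kept the call (-0.74 to -0.48 in the others). FANCD2 stood at 10.70, 10.69 and 11.34 in control replicates 1 to 3 and at 10.67, 9.89 and 10.28 in GDF11 replicates 1 to 3. Its control replicate 3 was the highest value and GDF11 replicate 1 came close to the lower controls, and FANCD2 was not called (-0.63 ± 0.25, adjusted p = 0.0978). The log2 ratio of FANCI to FANCD2 was 0.75 ± 0.58 in controls and 0.76 ± 0.15 with GDF11 (mean ± SD, n = 3 each, two-sided exact permutation p = 1.0). The ubiquitin ligase gene FANCL had a difference of -0.12 ± 0.15, FANCC of -0.30 ± 0.16 and FANCB, an X-linked core gene, of -0.12 ± 0.28. FANCF, the adaptor of the core, was the only Fanconi gene with a positive difference (0.25 ± 0.16, adjusted p = 0.304).

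The mismatch repair genes were not called. MSH6, which recognises single mismatches, stood at 11.76, 11.75 and 12.18 in control replicates 1 to 3 and at 11.73, 11.34 and 11.53 in GDF11 replicates 1 to 3. All GDF11 values were below the controls by a small margin, and the difference was -0.36 ± 0.18 (adjusted p = 0.169). PMS2, which cuts the strand to be corrected, had a difference of -0.12 ± 0.17 (adjusted p = 0.643). Reads of PMS2 are uncertain, since 9 pseudogenes of that name are in the table with values up to 9.32.

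In base excision and single-strand break repair 2 of 4 members fell. NEIL3, a DNA glycosylase of dividing cells (chromosome 4, 177309874 to 177371268), stood at 8.81, 8.40 and 8.74 in control replicates 1 to 3 and at 7.86, 7.72 and 7.90 in GDF11 replicates 1 to 3. The groups were far apart, and NEIL3 fell by 0.83 ± 0.16 (adjusted p = 0.00649), to 45.3% of control. PARP2 fell by 0.51 ± 0.14 (adjusted p = 0.0308), and of the fits with 1 library left out only the one without control replicate 3 kept this call (-0.57 to -0.48 in the others). PARP1, the main sensor of strand breaks, stood at 12.84, 12.79 and 13.30 in control replicates 1 to 3 and at 12.86, 12.53 and 12.70 in GDF11 replicates 1 to 3. GDF11 replicate 1 lay inside the control range, and PARP1 was not called (-0.28 ± 0.18, adjusted p = 0.295). XRCC1, the scaffold of this route, was not called (-0.46 ± 0.17, adjusted p = 0.0832) and was called lower without control replicate 3 (-0.59, adjusted p = 0.00799).

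End joining genes moved in both directions, with 1 of 6 higher, 2 lower and 3 not called. LIG4, the ligase that seals the break (chromosome 13, 108207442 to 108218349), was the only member to rise. It stood at 7.43, 7.28 and 7.69 in control replicates 1 to 3 and at 8.02, 7.98 and 8.38 in GDF11 replicates 1 to 3. All GDF11 values were above all controls, and LIG4 rose by 0.66 ± 0.17 (adjusted p = 0.0242), from 98.1 to 198 normalised reads. The call of LIG4 ended without control replicate 1 or 2 or GDF11 replicate 1 or 3 (0.53 to 0.72). XRCC4, its binding partner, was not called, with all GDF11 values above the controls (0.42 ± 0.18, adjusted p = 0.13).

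The Ku heterodimer, which caps broken ends, is made of XRCC6 (Ku70) and XRCC5 (Ku80). XRCC6 stood at 15.21, 15.34 and 14.91 in control replicates 1 to 3 and at 14.60, 14.64 and 14.42 in GDF11 replicates 1 to 3. It fell by 0.60 ± 0.17 (adjusted p = 0.0375), and of the fits with 1 library left out only the one without control replicate 3 kept the call (-0.64 to -0.50 in the others). XRCC5 had a log2 level of 14.66 in both group means and a difference of 0.01 ± 0.15 (adjusted p = 0.976). The log2 ratio of XRCC6 to XRCC5 was 0.51, 0.78 and 0.19 in controls 1 to 3 and -0.11, 0.06 and -0.28 with GDF11. These ratios did not overlap, and their difference was -0.61 (two-sided exact permutation p = 0.1, the smallest that 3 against 3 can give, adjusted to 0.3 over 6 partner pairs). The 6 pairs were picked after the values were seen, and the p-values do not allow for this. POLQ, the polymerase of the microhomology route, stood at 8.86, 9.04 and 9.01 in control replicates 1 to 3 and at 8.53, 8.05 and 8.53 in GDF11 replicates 1 to 3. It fell by 0.60 ± 0.17 (adjusted p = 0.0366), and here too only the fit without control replicate 3 kept the call (-0.68 to -0.44 in the others). PRKDC, for the DNA-PK catalytic subunit, had a difference of -0.17 ± 0.25 (adjusted p = 0.657), with control replicate 3 above the other controls by 0.86.

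Among checkpoint and signalling genes the effector kinases fell and the kinases upstream of them were not called. CHEK1, which restrains origin firing and mitotic entry (chromosome 11, 125625136 to 125681124), stood at 10.84, 10.62 and 11.03 in control replicates 1 to 3 and at 9.83, 9.38 and 9.91 in GDF11 replicates 1 to 3. Every GDF11 value was below the controls, and CHEK1 fell by 1.13 ± 0.19 (adjusted p = 0.0034), to 43.4% of control. CHEK2, the main ATM effector (chromosome 22, 28687742 to 28741834), stood at 10.71, 10.73 and 10.34 in control replicates 1 to 3 and at 9.59, 9.65 and 9.57 in GDF11 replicates 1 to 3. It fell by 0.99 ± 0.16 (adjusted p = 0.00266), to 46.9% of control. The table also lists 7 CHEK2 pseudogenes, none above 6.07. The span of CHEK1 overlaps the gene ACRV1, and 17 members in all overlap another protein-coding gene, among them XRCC3 (KLC1), RAD54L (LRRC41), FANCA (ZNF276), FANCI (POLG), ERCC2 (KLC3) and TP53BP1 (TUBGCP4). The kit kept the strand, whether counting used it was not given in the sources used here, and values of these genes are uncertain to that extent.

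ATR stood at 10.15, 9.72 and 10.56 in control replicates 1 to 3 and at 10.33, 9.99 and 10.40 in GDF11 replicates 1 to 3. The ranges overlapped, and the difference was 0.10 ± 0.23 (adjusted p = 0.787). ATM stood at 9.81, 10.78 and 11.31 in control replicates 1 to 3 and at 10.69, 10.39 and 11.02 in GDF11 replicates 1 to 3. Its controls spread over more than the GDF11 libraries, and the difference was 0.07 ± 0.34 (adjusted p = 0.901). The log2 ratio of CHEK1 to ATR was 0.69, 0.90 and 0.47 in controls 1 to 3 and -0.50, -0.62 and -0.49 with GDF11, a difference of -1.22 without overlap (two-sided exact permutation p = 0.1, the smallest possible, adjusted to 0.3 over 6 pairs). This pair, like the others, was picked after the values were seen, which the p-values do not allow for. The ratio of CHEK2 to ATM differed by -1.06 with overlapping groups (exact permutation p = 0.2, adjusted 0.3). Of the other pairs compared, LIG4 to XRCC4 differed by 0.24 (exact permutation p = 0.2, adjusted 0.3) and BRCA1 to BARD1 by -0.01 (exact permutation p = 0.9, adjusted 1.0), both with overlap.

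TP53BP1, which encodes the chromatin protein 53BP1 that favours end joining, had the largest positive difference of all members and was not called. It stood at 9.96, 9.78 and 11.16 in control replicates 1 to 3 and at 11.38, 10.96 and 11.64 in GDF11 replicates 1 to 3. Control replicate 3 lay within the GDF11 range, above GDF11 replicate 2, and far above the other controls. The difference was 1.02 ± 0.35 (adjusted p = 0.0638) with 6 libraries, 1.45 without control replicate 3 (adjusted p = 0.00072) and 0.03 in a fit adjusted for RNA integrity (adjusted p = 0.977). MDC1, which binds phosphorylated H2AX, was not called (-0.55 ± 0.20, adjusted p = 0.0778) and was called lower without control replicate 3 (-0.60, adjusted p = 0.0395).

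**Figure D3:**
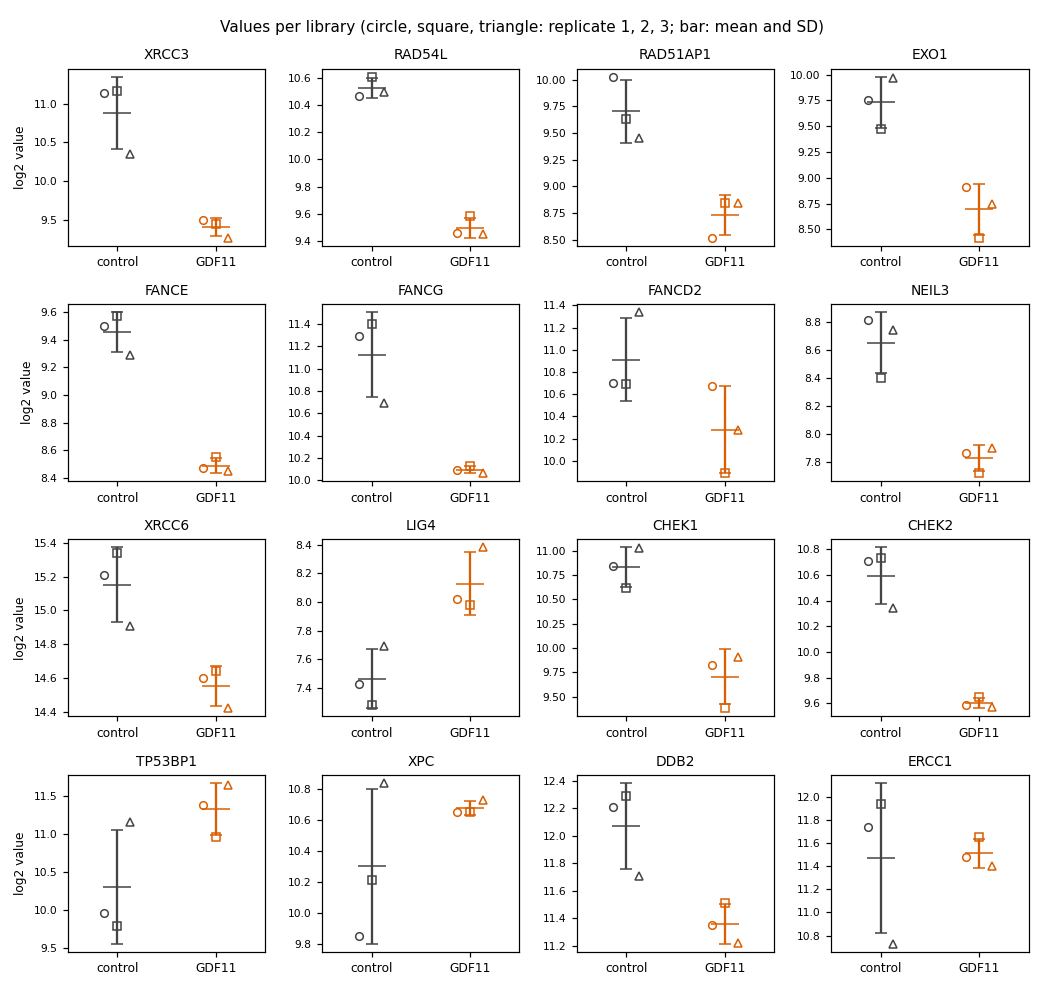
Log2 values of 16 members in each library (vertical axes, a separate scale for each gene), with control libraries in grey and GDF11 libraries in orange. The groups are apart for genes such as XRCC3, RAD54L, CHEK1 and CHEK2, while the triangle of control replicate 3 lies near or beyond the GDF11 values for TP53BP1, XPC and ERCC1.

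In nucleotide excision repair 2 of 4 members fell. DDB2, a sensor of ultraviolet lesions and a p53 target, stood at 12.21, 12.29 and 11.71 in control replicates 1 to 3 and at 11.35, 11.51 and 11.22 in GDF11 replicates 1 to 3. Control replicate 3 was the lowest control and still above the GDF11 values. DDB2 fell by 0.71 ± 0.19 (adjusted p = 0.0262), and of the fits with 1 library left out only the one without control replicate 3 kept the call (-0.78 to -0.60 in the others). ERCC2, the XPD helicase of TFIIH, stood at 12.62, 12.73 and 12 in control replicates 1 to 3 and at 11.68, 11.94 and 11.39 in GDF11 replicates 1 to 3. It fell by 0.78 ± 0.23 (adjusted p = 0.0382) and was no longer called when control 1 or 2 or GDF11 1 or 3 was left out (-0.78 to -0.64). XPC, the other lesion sensor, stood at 9.85, 10.21 and 10.84 in control replicates 1 to 3 and at 10.65, 10.65 and 10.73 in GDF11 replicates 1 to 3. Control replicate 3 was above all GDF11 values, and XPC was not called (0.38 ± 0.23, adjusted p = 0.269), but was called higher without that control (0.65, adjusted p = 0.007). ERCC1, the partner of the XPF nuclease, stood at 11.74, 11.94 and 10.73 in control replicates 1 to 3 and at 11.48, 11.65 and 11.40 in GDF11 replicates 1 to 3. Control replicate 3 was the lowest of the 6 libraries by a wide margin, and the difference of 0.04 ± 0.29 (adjusted p = 0.928) became -0.33 without it (adjusted p = 0.0767).

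**Figure D4:**
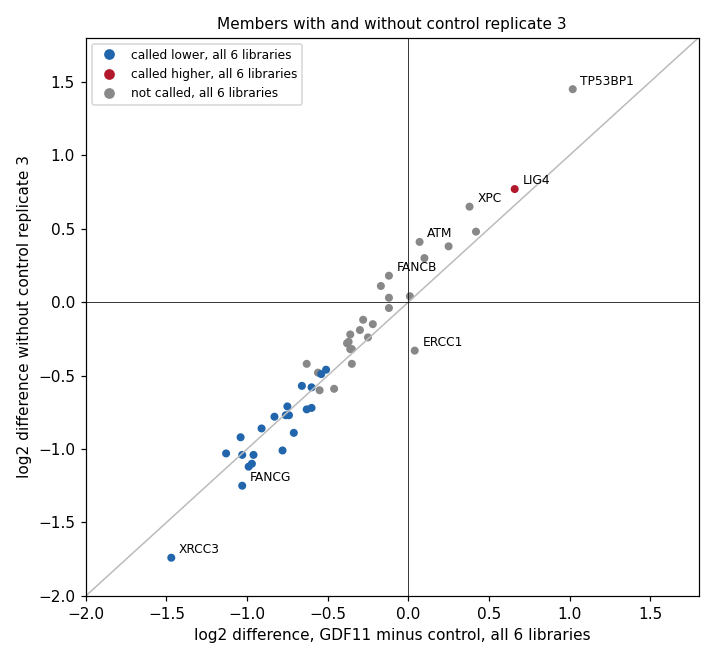
Log2 difference between GDF11 and control of each member with all 6 libraries (horizontal axis) and without control replicate 3 (vertical axis), coloured by the call with 6 libraries, with a grey line of equal values. TP53BP1, ERCC1, ATM and FANCB lie farthest from the line, and the genes called lower stay below 0 on both axes.

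The strength of these calls differed between members. In each of the 6 fits with 1 library left out 11 of the 21 members stayed called lower: BRIP1, RAD51AP1, RAD51C, RAD54L, XRCC3, EXO1, FANCE, FANCG, NEIL3, CHEK1 and CHEK2. Leaving out control 1 gave 12 members lower and 0 higher (5.84% and 7.56% of all tested genes), and leaving out control 2 gave 15 and 0 (6.35% and 8.62%). Leaving out GDF11 1 gave 12 and 0 (5.35% and 7.46%), GDF11 2 gave 13 and 1 (6.11% and 8.1%), and GDF11 3 gave 13 and 0 (5.1% and 7.81%). At an adjusted p under 0.01 with all libraries 11 members were lower and 0 higher, beside 4.22% and 6.25% of all tested genes. With libraries weighted by their spread 26 were lower and 4 higher (24.3% and 23.9%), and with the replicate number as a block 25 and 3 (17.7% and 16.8%). The integrity number of the RNA was 9.8, 9.9 and 9.6 for controls 1 to 3 and 9.6, 9.5 and 9.4 for GDF11 cultures 1 to 3, so it moved with the groups. Adjusted for it, the fit called 11 members lower, 9 of them among the 21, and 0 higher, beside 3.85% and 6.14% of all tested genes. The calls of RAD51AP1, DNA2, FANCA, FANCG, FANCI, FANCM, PARP2, POLQ, XRCC6, CHEK2, DDB2 and ERCC2 ended there, at differences of -0.93 (RAD51AP1) to -0.20 (ERCC2), as did that of LIG4 (0.26, adjusted p = 0.499). XRCC3 stayed called at -0.84. The other members of these 11 were FANCB (-1.06, adjusted p = 0.0103) and PRKDC (-0.94, adjusted p = 0.0229).

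Control replicate 3 also differed from the other controls with the makeup of the transcripts. Across the 48 members its distance from the mean of the other controls had a Pearson r of -0.49 with the GC content of the canonical transcript and 0.48 with log2 length, against -0.43 and 0.35 across 18451 tested genes. These are descriptions across genes that share the same libraries. Among the 24 members of lower GC content (35.2% to 42.8%) control replicate 3 was above the mean of the other controls for 20, and among the 24 of higher GC content (43.4% to 62.8%) for 12. Members called lower numbered 10 in the group of lower GC content and 11 in the other. The median difference over all 24 members was -0.38 in the first group and -0.53 in the second. The GDF11 difference itself had a Pearson r of -0.29 with GC content and 0.27 with log2 length across the members. Across the 18451 tested genes these were -0.11 and 0.17. The part of transcript makeup in the member differences was not tested.

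Repair genes outside the list were lower or not called. Of 122 further genes of the same routes 30 were lower, 0 were higher and 92 were not called, with a median difference of -0.26. Of all tested genes 10.8% were called lower and 11.7% higher. At an unadjusted p under 0.05, limma gave 51 of the 122 lower and 3 higher, where 18.7% of all tested genes were lower and 18.5% higher. At the adjusted threshold, leaving out control 3 raised the lower count from 30 to 49 and gave 7 higher. In that fit 21.3% of all tested genes were lower and 19.5% higher. Leaving out GDF11 1, 2 or 3 brought the lower count to 17, 19 or 20, beside 5.35%, 6.11% and 5.1% of all tested genes. Adjusting for RNA integrity brought it to 14, beside 3.85% of all tested genes. In homologous recombination 9 of 35 fell, led by RMI2 of the BLM complex (-1.05 ± 0.14, adjusted p = 0.000963) and TONSL (-1.35 ± 0.19). In the Fanconi route 3 of 10 fell: UBE2T, the ubiquitin conjugase for FANCD2 (-1.0 ± 0.15), MAD2L2 (-0.79 ± 0.23) and FAAP100 (-0.76 ± 0.24). In mismatch repair 2 of 6 fell, among them the ligase gene LIG1 (-1.23 ± 0.20). In base excision repair 7 of 19 fell, led by the uracil glycosylase UNG (-1.04 ± 0.15), NTHL1 (-1.30 ± 0.23) and polymerase beta, POLB (-0.88 ± 0.17).

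Among further checkpoint genes 7 of 19 fell, led by the phosphatase gene CDC25A (-1.43 ± 0.16), the ATR partner ATRIP (-0.80 ± 0.15) and RAD1 of the checkpoint clamp (-0.79 ± 0.15). None of 5 further end joining genes and none of 19 further nucleotide excision genes was called by limma, with medians of -0.26 and -0.04, and at an unadjusted p under 0.05 limma gave 2 lower among the end joining genes and 4 lower and 1 higher among the nucleotide excision genes, beside the same 18.7% and 18.5%. Of 9 genes of translesion synthesis and direct reversal, RAD18 (-0.73 ± 0.15) and ALKBH2 (-0.80 ± 0.20) fell.

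Replication and S-phase genes, read here only for comparison, fell in 31 of 36 cases with a median difference of -0.96, beside 10.8% of all tested genes. They included CDT1 (-2.18 ± 0.33), which licenses origins, and PCNA (-0.84 ± 0.14), the sliding clamp, both picked after their values were seen. After adjusting for RNA integrity 21 of the 36 were called lower, beside 3.85% of all tested genes. The part of these replication and S-phase genes in the member differences was not tested. Of 20 p53 target genes outside the list 3 rose, 3 fell and 14 were not called, with a median of -0.06, counts near the 11.7% and 10.8% of all tested genes. CDKN1A, which encodes the cell cycle inhibitor p21, stood at 12.41, 12.40 and 12.12 in controls and 13.40, 13.43 and 13.15 with GDF11, and rose by 1.01 ± 0.16 (adjusted p = 0.00242). PLK3 (0.84 ± 0.16) and TIGAR (0.93 ± 0.19) rose as well, while FDXR (-0.88 ± 0.22), AEN (-0.70 ± 0.15) and CCNG1 (-0.64 ± 0.15) fell. Without control replicate 3, 5 of these 20 were higher and 5 lower, near the 19.5% and 21.3% of all tested genes in that fit.

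**Figure D5:**
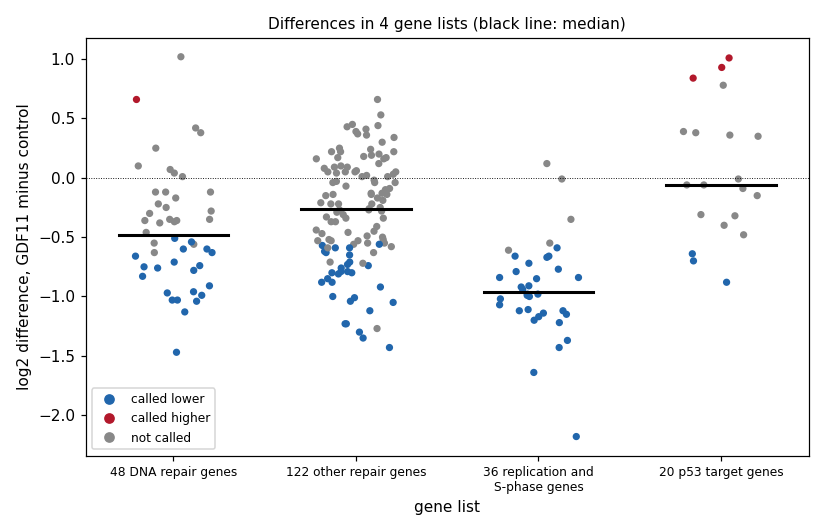
Log2 differences between GDF11 and control (vertical axis) in 4 gene lists, each point a gene, coloured by its call, with the median as a black line. Medians were -0.48 for the 48 repair genes, -0.26 for 122 other repair genes, -0.96 for 36 replication and S-phase genes and -0.06 for 20 p53 targets.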

How the data were processed

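RNA of 6 HepG2 cultures, 3 control and 3 GDF11, was sequenced from 250 ng with a strand-keeping kit as 75-base single reads, per the labels' protocols. Those protocols name STAR 2.6 and hg19, while the submitters' processing notes name Trimmomatic, Salmon 1.2.1, DESeq2 and GRCh38; which of them made the table was not given in the sources used here. Variance-stabilised log2 values for 60240 Ensembl genes, in 1 table, are what the authors deposited. This scale compresses low genes: a true log2 step appears as 0.696 near a value of 8, 0.835 near 9 and 0.978 near 12. Symbols were found for 96.861% of the gene IDs. Percentages of control were computed from reads back-transformed from the log2 values. From the value of 1 read, 71.1% to 74.2% of values up to 20 reads came out whole within 0.01, so no count test was run.

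Differences are GDF11 minus control with moderated standard errors from limma 3.58.1 (R 4.3.3, mean trend, two-sided), fitted to the 18723 genes whose mean was at least 0.5 above the lowest value, with Benjamini-Hochberg adjustment over all of them and a threshold of 0.05. The script was tested on simulated data. Values per library are given for the 12 called members with the largest differences and for a list of central repair genes whatever their result. Those of LIG4 and ERCC1 are also given, outside these rules. The other members were named beside their roles. Of other repair genes, up to 3 called in each role with the lowest p were named. A few genes that these rules would name are not reported here. The 6 partner pairs were picked after the values were seen. The members and lists were chosen with earlier results of these data known. Alternatives covered the filter, scaling, variance model, weights per library, RNA integrity as a covariate, the threshold, a replicate block and leaving out each library.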

Additional observations from a re-analysis of the deposited data

How the results depend on the processing

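The median difference over the 48 members stayed between -0.55 and -0.43 under every alternative run. Counts of members called lower and higher (21 and 1) moved to 11 and 0 when adjusted for RNA integrity and to 11 and 0 at an adjusted p under 0.01. Members called higher numbered 4 with library weights, beside 26 lower. Leaving out 1 library gave 12 to 24 lower and 0 to 3 higher. For the 122 other repair genes (30 lower, 0 higher) the counts were 63 and 11 with library weights, 14 and 0 with the integrity covariate, 17 and 0 at an adjusted p under 0.01, and 17 to 49 and 0 to 7 with 1 library left out. Over all tested genes, lower and higher calls numbered 2017 and 2185, and 4554 and 4473 with library weights, 721 and 1149 with the covariate, 791 and 1170 at 0.01, and 955 to 3993 and 1397 to 3647 with 1 library left out. The cause of these shifts was not tested.

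Whether the replicate numbers pair the cultures was not settled. Same-numbered deviations had correlations of -0.09, 0.38 and 0.48 for numbers 1 to 3. The highest correlations with another number were 0.25, 0.25 and -0.05. Numbers 2 and 3 thus correlated best with their own number and number 1 did not. With a replicate block 25 members were lower and 3 higher, and among other repair genes 50 were lower and 4 higher. Of all tested genes 17.7% were lower and 16.8% higher in that fit.

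Of 719 member values under alternatives, 602 kept direction and side of the threshold, 72 lost and 25 gained the call, and 20 changed sign, none of them a called member. With the integrity covariate BRCA2 was 0.21, FANCF -0.05, XRCC5 -0.07, ATM -0.54, ATR -0.43 and XPC -0.12. With library weights BRCA2 was 0.20 and ERCC1 -0.19. With 1 library left out the sign changes were within these ranges: FANCB -0.33 to 0.18, PMS2 -0.23 to 0.03, XRCC5 -0.04 to 0.05, PRKDC -0.37 to 0.11, ATM -0.34 to 0.41, ATR -0.11 to 0.30 and ERCC1 -0.33 to 0.28. With 3 libraries a group, members whose differences were small beside their errors could not be told from no change.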
